A study of Mus musculus with 768 samples.

Results

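The matrix cancer-associated fibroblast-like (mCAF-like) cells of 2 mouse mammary tumors were divided by whether a read of Cd34 was counted in the cell. The cells were selected on measured values: a well had to hold at least 10000 reads of endogenous genes and at least 1000 genes, and the mean log2(RPKM + 1) of Dcn, Lum, Mfap5, Olfml3, Smoc2 and Serpinf1 (M) had to be at least 4 and above the same mean of the vascular genes Rgs5, Higd1b, Kcnj8, Rgs4, Abcc9 and Gja4 (V). RPKM is the number of reads per kilobase of gene length, scaled to the depth of the cell. Of the 768 wells, 96 of tumor 1 and 90 of tumor 2 held mCAF-like cells. At least 1 Cd34 read was counted in 56 of these cells (25 in tumor 1 and 31 in tumor 2), and 0 in the other 130 (71 and 59). The first are called Cd34-positive and the second Cd34-negative cells. Cd34 and the 12 genes of M and V made the groups, so their values are given as a description with no test.

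All cells came from mammary tumors of mice aged 14 weeks. In this strain, FVB/N-Tg(MMTVPyVT)634Mul/J, the polyoma middle T oncogene is driven by the MMTV promoter in the mammary epithelium. Live cells were sorted as negative for EpCAM, CD45, CD31 and NG2, so that epithelial, immune, endothelial and NG2-bearing perivascular cells were depleted, and single-cell libraries were made by Smart-seq2, a full-length method without molecular identifiers. Each tumor filled 1 plate, so tumor and plate cannot be told apart, and there was no treatment and no tumor-free control. Whether the tumors grew in separate mice is not given in the sources used here. The replicate is the tumor (n = 2): reads were summed over the Cd34-positive and over the Cd34-negative cells of each tumor, which gave 4 summed libraries of 6972518 and 17750027 reads in tumor 1 and 7982341 and 12911778 reads in tumor 2, Cd34-positive first.

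CD34 is a sialomucin of the cell surface, best known from blood stem cells and vascular endothelium. It is also carried by many resting fibroblasts of connective tissue, among them the fibroblasts of the vessel adventitia that bear Pi16, Dpp4 and Ly6a, and fibroblasts that become activated or take on a contractile form commonly lose it. The gene lies on chromosome 1 (RefSeq GRCm38.p6, 194938821 to 194961292), where its annotated span overlaps that of Gm16897, which had 2.72 and 4.01 reads per 1000000 endogenous reads (RPM, of the summed reads of a group of cells) in the Cd34-positive cells of the tumors and 0 RPM in the Cd34-negative cells; the strand of a read was not kept by the method, so reads of the shared stretch could not be assigned to one of them.

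In most cells the presence of Cd34 did not rest on single reads. Cd34 was read in 26% of the mCAF-like cells of tumor 1 (exact 95% interval 17.6 to 36) and in 34.4% in tumor 2 (24.7 to 45.2). Over both tumors the share was 30.2% ± 5.94 (SD, n = 2). Cells selected in the same way for the vascular genes (vCAF-like, V of at least 4 and above M) held a Cd34 read in 4.21% and 4.68% (11 cells in each tumor), at a median depth of 202729 and 191893 reads per cell against 262024 and 232395 in the mCAF-like cells. With every cell thinned to 42000 reads, which left out 8 mCAF-like and 14 vCAF-like cells, the shares were 23.9% and 34.9% in mCAF-like and 1.96% and 1.76% in vCAF-like cells. Intervals and shares cover counting error only. Among Cd34-positive mCAF-like cells the median count was 39 and 38 reads and the RPKM ranged from 1.17 to 1805 (median 53.4) in tumor 1 and from 3.52 to 1875 (median 46.8) in tumor 2, while in vCAF-like cells with Cd34 the median count was 1 read in both tumors. In the mCAF-like cells 3 of the 25 and 1 of the 31 positive cells rested on fewer than 5 reads.

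**Figure D1:**
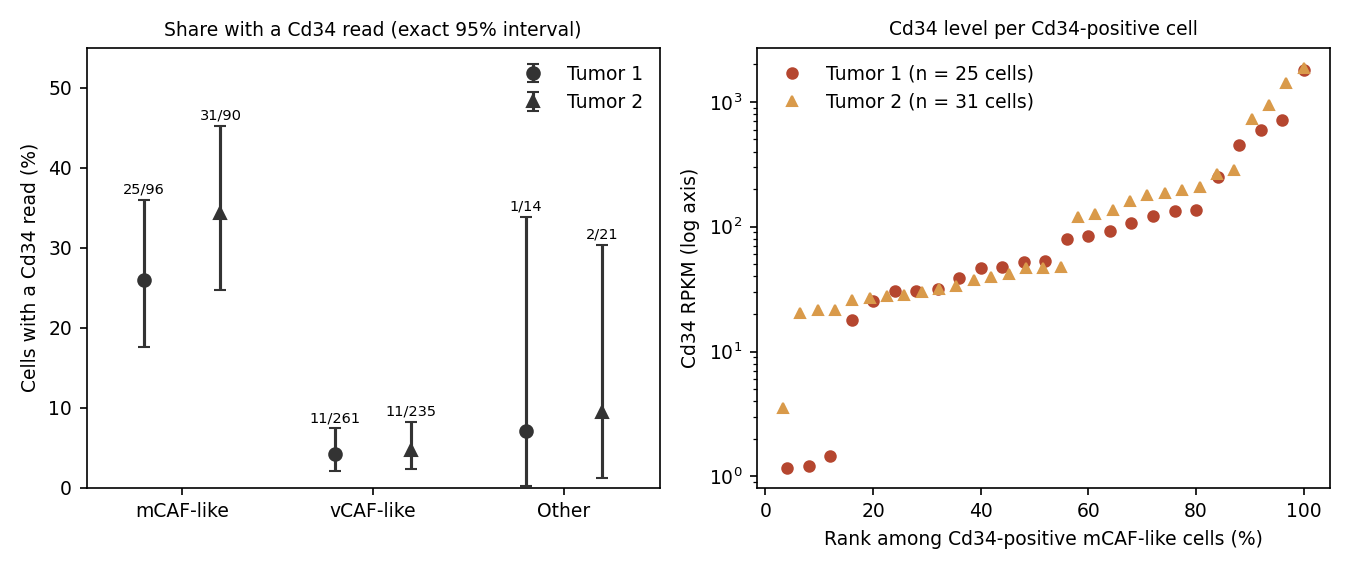
Left, percentage of cells with at least 1 Cd34 read in mCAF-like, vCAF-like and other cells of each tumor, with the number of cells above each point and bars for the exact 95% binomial interval. Right, Cd34 RPKM on a log axis of each Cd34-positive mCAF-like cell, ordered by rank within its tumor; the levels run from 1.17 to 1875 RPKM and only 4 of the 56 cells lie below 5 RPKM.

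The 2 groups of cells had a like median depth, but the shallowest cells were mostly Cd34-negative. The median was 247019 reads per Cd34-positive and 266725 per Cd34-negative cell in tumor 1, and 242411 and 217838 in tumor 2, with 5644 against 5387 and 5525 against 5417 genes. Fewer than 100000 reads were held by 1 and 2 Cd34-positive but by 9 and 14 Cd34-negative cells, and the fewest genes in a cell were 2928 and 3029 against 1424 and 1026. The spike-ins took a median of 5.76% and 6.16% of the reads of a Cd34-positive cell against 7.11% and 6.47%, with a maximum of 26.8% and 24.1% against 59.1% and 59.2%, and exceeded 30% in 0 Cd34-positive and in 6 and 6 Cd34-negative cells. The part of these cells in the differences was measured by leaving them out, with the calls. The share of cells with Cd34 in the shallowest, middle and deepest equal parts of the cells was 21.9%, 31.2% and 25% in tumor 1 and 23.3%, 40% and 40% in tumor 2. Of 10 mCAF markers outside M, Cd34-positive cells read a mean of 8.52 and 8.06 per cell and Cd34-negative cells 7.68 and 7.64. Their summed level was 9026 and 8799 against 8608 and 8667 RPM. Both groups thus carried mCAF markers outside M, but the study named these markers from the same wells, so this is not independent evidence. Of the genes of M, Dcn, which binds collagen fibrils, was read in 25 of 25 and 69 of 71 cells of tumor 1 and in 31 of 31 and 56 of 59 of tumor 2. Dcn had 6451 and 4877 summed RPM in Cd34-positive and 3869 and 2700 in Cd34-negative cells, and Mfap5, a microfibril protein, had 3500 and 2392 against 1554 and 1541. Serpinf1 had 2911 and 3053 against 2834 and 3363. The median of M was 10.6 and 9.95 in Cd34-positive and 10 and 9.48 in Cd34-negative cells, and M was below 7 in 0 and 4 Cd34-positive but in 7 and 16 Cd34-negative cells. Rgs5 and Rgs4, which belong to V, had lower RPM in the Cd34-positive sums (14.2 and 37.1 against 271.8 and 112.7, and 37.9 and 63.5 against 220.3 and 247.8), while Kcnj8 (62.8 and 8.14 against 34.3 and 25.2) and Abcc9 (14.3 and 23.1 against 61.4 and 21.6) differed in direction between the tumors and Higd1b and Gja4 stayed below 8 RPM in every sum. V reached 2 in 5 and 3 Cd34-positive and in 13 and 13 Cd34-negative cells. The mCAF-like cells closest to the threshold had M of 4.07, 4.07 and 4.14, and the wells just below it 3.54, 3.72 and 3.95; none of these 6 held a Cd34 read.

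Of the markers of other cell types, those of pericytes were read in many cells of both groups, and a few endothelial markers in some. No read of Ptprc (CD45) or of the endothelial Cdh5 and Tie1 was counted in any of the mCAF-like cells, which allows a share of up to 1.61% of cells with a read, and Pecam1 was read in 2 Cd34-positive cells of tumor 2 alone. Kdr was read in 1 and 1 Cd34-positive and no Cd34-negative cell. Of the 10 endothelial markers a mean of 1.04 and 0.871 was read per Cd34-positive and of 0.915 and 0.78 per Cd34-negative cell. They summed to 69 RPM in Cd34-positive and 61 RPM in Cd34-negative cells of tumor 1 and to 81.9 RPM in Cd34-positive cells of tumor 2, where Flt1 alone reached 107.2 RPM in Cd34-negative cells. Flt1 was read in 10 of 25 and 11 of 31 Cd34-positive and in 23 of 71 and 22 of 59 Cd34-negative cells, and Tek in 9 and 2 against 10 and 4 cells. The 10 immune markers summed to 6.17 and 8.77 RPM in Cd34-positive against 17 and 12.3 in Cd34-negative cells. The 12 epithelial markers summed to 11.6 and 27.8 against 152.3 and 57, with Epcam itself at 5.16 and 13 against 5.8 and 9.14. The 6 pericyte markers outside V summed to 368.9 and 354.5 against 440.1 and 519.7. Among them Cspg4, which encodes the sort marker NG2, was read in 16 of 25 and 23 of 31 Cd34-positive and in 55 of 71 and 47 of 59 Cd34-negative cells, and Mcam in 16 and 18 against 54 and 42 cells. The 6 markers of developmental CAFs summed to 48.3 and 239.5 against 307.5 and 279.1. The 4 adipocyte markers were at 0 but for 1 Cd34-negative cell with Lep, and of the 4 mesothelial markers Wt1 alone was read, at 1.72 and 12.2 against 12.4 and 15.6. The immune, epithelial, pericyte, developmental CAF and mesothelial lists were thus lower in the Cd34-positive sums of both tumors, and the endothelial list in tumor 2 alone. By genes read per cell the developmental CAF list went the other way, with a mean of 0.96 and 1.58 against 0.93 and 1.42. The mean log2(RPKM + 1) over cells was lower in both tumors for 0 of 5 developmental CAF and 1 of 8 epithelial markers tested. It was lower for 4 of 4 immune and 5 of 6 pericyte markers. With M of at least 7, the median log2 fold change of the pericyte markers moved from -0.94 to -0.32 and that of the 3 endothelial markers tested from -1.26 to 0.94. Those of the immune (-4.44 to -4.20) and mesothelial markers (-1.55 to -1.71) stayed negative, and that of the developmental CAF markers went from -1.49 over 5 tested genes to -0.54 over 3. That of the epithelial markers moved from -2.52 over 8 tested genes to 0.15 over the 5 still tested. Their part in the differences below was not tested beyond the leave-out values given with the calls.

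The comparison asked which other genes differed between Cd34-positive and Cd34-negative cells within each tumor. The counts of the 4 summed libraries were fitted with edgeR's quasi-likelihood test with the tumor as a block over 11395 genes with a mean of at least 1 RPKM in the mCAF-like cells, the 13 genes of the rule left out, and p-values were adjusted by Benjamini-Hochberg over all of them. At an adjusted p under 0.05, 13 genes were higher (0.114% of the genes tested) and 9 lower (0.0790%) in Cd34-positive cells, with unadjusted p under 0.05 in 2.98% and 4.07%. Of the genes tested 47.2% had a log2 fold change above 0 and 52.8% one below 0, in 16.3% both Cd34-positive sums lay above both Cd34-negative sums, and in 17.4% both lay below. The fit had 1 residual degree of freedom and the calls were few and depended on the settings: without the block 2 and 0 genes were called, with only the cells at or above the median depth of their tumor 0 and 0 (with an unadjusted p under 0.05 in 1.49% and 2.6%), and with DESeq2 78 and 90. Without cells that held an Epcam, Pecam1 or Ptprc read 6 genes were called higher and 2 lower, of which 5 were among the 13 and 1 among the 9. Without cells whose V was 2 or more the calls were 1 and 1, of which 0 and 1 were among them, and with M of at least 7 they were 7 and 3, of which 5 and 3 were. Without the cells under 100000 reads or over 30% spike-in reads they were 5 and 2, all of them among the 13 and the 9. Of the 22 genes called, every one that was tested had the same sign in every alternative. The alternatives mostly reuse cells of the main fit, so this is not independent evidence. Levels and signs are given below before the calls. The mean log2(RPKM + 1) over cells, which gives each cell the same weight, had the sign of the fold change in both tumors for all 13 and all 9. Of the 13, 5 reached the mean of 1 RPKM in the Cd34-positive cells alone (Sfrp4, Opcml, Tnxb, Spon2 and Angptl7), and of the 9, 4 in the Cd34-negative cells alone (Mmp10, Krt14, Chad and Cxcl9), so these 9 genes passed the filter through the group in which they were high and had to differ. With no filter on genes 3 were called higher and 1 lower. Scaled to the spike-in RNA in place of the endogenous reads, the median log2 fold change of all genes moved from -0.03 to 0.40 and the calls were 13 higher and 2 lower; all changes below are relative to the endogenous total. In what follows, paired values are summed RPM of tumors 1 and 2 in Cd34-positive against tumors 1 and 2 in Cd34-negative cells unless said otherwise, values with ± are log2 fold changes with their SE, and the most abundant members of a list are those of highest mean RPKM.

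The 13 genes higher in Cd34-positive cells included Dpt, Tnxb, Pi16, Ly6c1 and Thbs4, secreted or surface proteins known from connective tissue fibroblasts. Dpt encodes dermatopontin, a protein that binds decorin and collagen. Its summed level was 556.5 and 360.2 RPM in the Cd34-positive cells of tumors 1 and 2 and 44.2 and 38.3 in the Cd34-negative cells, so the groups did not overlap, and its log2 fold change was 3.44 ± 0.23 (SE, edgeR adjusted p = 0.0019). It was read in 12 of 25 and 13 of 31 Cd34-positive cells and in 18 of 71 and 14 of 59 Cd34-negative cells. Tnxb, the tenascin of loose connective tissue, had 194.9 and 187.8 against 1.13 and 1.55 RPM (log2 fold change 7.16 ± 0.35, edgeR adjusted p = 0.00035), and lies on chromosome 17 (34660453 to 34719815). These reads came from few cells, 6 and 6 Cd34-positive against 5 and 3 Cd34-negative, and 1 cell gave 34.4% of the Cd34-positive reads. Tnxb also passed the filter on genes through the Cd34-positive cells alone. Pi16, a peptidase inhibitor that names the adventitial fibroblast state, was read in 20 of 25 and 22 of 31 Cd34-positive cells and in 44 of 71 and 20 of 59 Cd34-negative cells. It had 783.9 and 423.8 against 198.3 and 153.3 RPM (log2 fold change 1.72 ± 0.21, edgeR adjusted p = 0.036).

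Ly6c1, a GPI-anchored surface protein of endothelium and of some fibroblasts, had 241.4 and 311.7 RPM in Cd34-positive and 23.7 and 62.9 in Cd34-negative cells (log2 fold change 2.82 ± 0.31, edgeR adjusted p = 0.032). Reads of Ly6c1 could be shared with its near-identical neighbor Ly6c2, which was at 0.143 and 0 against 0 and 0.155. Thbs4, a thrombospondin of tendon and vessel wall, had 663.7 and 515.5 against 219.8 and 183.5 (1.54 ± 0.19), and Tppp3, a microtubule-binding protein known from tendon sheath cells, had 398.6 and 388.98 against 140.3 and 88.7 (1.81 ± 0.23). Tmem100, a small membrane protein induced by BMP signals, had 57.8 and 161.98 against 4.9 and 14.1 (3.53 ± 0.32, edgeR adjusted p = 0.014), and was read in 18 of 31 Cd34-positive cells of tumor 2 and 8 of 59 Cd34-negative ones. Lrrn4cl, a surface protein, had 179.7 and 195.4 against 50.1 and 36.9 (2.12 ± 0.26). The edgeR adjusted p of Thbs4, Tppp3 and Lrrn4cl was 0.036 each. For all 5 of these genes both Cd34-positive sums lay above both Cd34-negative sums.

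The other called genes rested on a handful of cells. Of them, Sfrp4, Opcml, Spon2 and Angptl7 passed the filter on genes through the Cd34-positive cells alone and had to differ. Sfrp4, a secreted Wnt antagonist, was read in 4 and 4 Cd34-positive cells at 123.2 and 116.8 RPM, and in the Cd34-negative cells a single read was counted (edgeR adjusted p = 0.00041). The ratio of the summed reads was 3672, with a counting interval from 658.2 to 145119. Such intervals, and the floors below, treat reads as independent and leave out the spread between cells. Opcml, a cell adhesion protein, was read in 4 and 2 Cd34-positive cells (19.6 and 38.6 RPM) and in no Cd34-negative cell. By summed reads it was at least 304.1-fold higher with 3 reads over the group as the floor, and 1 cell held 50.1% of its reads. Spon2, a secreted matrix protein, was read in 9 and 3 cells against 1 and 2 (88.2 and 115.3 against 0.0563 and 2.48). Angptl7 had 1.29 and 79.7 against 0 and 0.929 RPM, and 98.6% of its Cd34-positive reads came from 1 cell. In tumor 1 it rested on 9 reads, and its span overlaps that of Mtor, which had 9.04 and 19.8 against 21 and 23.9 RPM, so reads of the shared stretch could not be assigned. Within a tumor, 5 Cd34-positive cells held the largest counts of all 13 genes, and 1 cell led in 5 of them in tumor 1 and in 8 of them in tumor 2. Without these 2 cells, 1 gene was called higher (Sfrp4) and 1 lower (Mmp10), both of which passed the filter through 1 group alone. All 13 kept their positive sign, with Dpt then at 3.01 and Tnxb at 6.08.

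**Figure D2:**
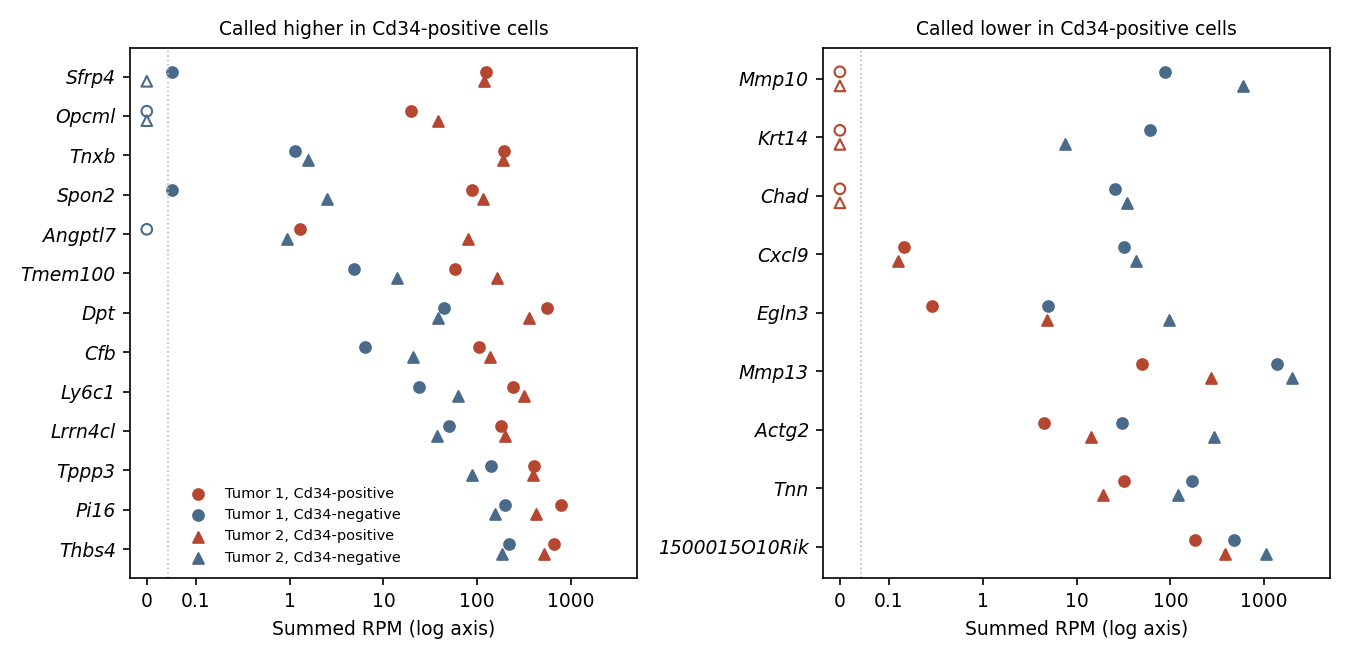
Summed RPM on a log axis of the 13 genes called higher and the 9 called lower, in the Cd34-positive (red) and Cd34-negative (blue) cells of tumor 1 (circles) and tumor 2 (triangles); open symbols left of the dotted line stand for 0 reads. In each tumor the red symbol lies right of the blue one for all 13 genes and left of it for all 9.

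The genes that mark universal and adventitial fibroblasts, a list of 24 that includes Pi16, Dpt, Dpp4 and Ly6a, leaned one way. All 24 had a positive log2 fold change with a median of 1.58, against -0.03 over all genes tested. Of them 4 passed the adjusted test (Tnxb, Dpt, Ly6c1 and Pi16), of which Tnxb had passed the filter on genes through the Cd34-positive cells alone. In the list 20 had an unadjusted p under 0.05, and in 22 both Cd34-positive sums lay above both Cd34-negative sums. Penk was at 69.3 against 26.1 in tumor 1 and 28.2 against 56.2 in tumor 2. Fibroblasts with Cd34 are known for many of these genes and the list was chosen with results of these data known, so its direction is not independent evidence. Summed over the list, Cd34-positive cells had 7519 and 8086 RPM and Cd34-negative cells 3824 and 3330, and a cell read a mean of 13.3 and 11.9 of the 24 genes against 9.23 and 8.8. Without the 2 leading cells the median was 0.90 with all 24 still positive.

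Several members came close to the threshold. Scara5, a ferritin receptor of fibroblasts, had 118.5 and 406.9 RPM against 31.8 and 34.5 (log2 fold change 2.72 ± 0.40, edgeR adjusted p = 0.061). Ackr3, the scavenging receptor of CXCL12, had 168.8 and 345.3 against 57.5 and 117.3 (1.55 ± 0.21, edgeR adjusted p = 0.054), and Sema3c, a guidance cue, had 64.1 and 62.3 against 10.8 and 5.65 (3.00 ± 0.42, edgeR adjusted p = 0.057). In each of these the values of both Cd34-positive sums lay above both Cd34-negative sums. Ly6a (Sca-1), the usual surface mark of such cells in mice, was read in 19 of 25 and 21 of 31 Cd34-positive cells and in 40 of 71 and 37 of 59 Cd34-negative cells, at 637.4 and 1112 against 451.2 and 312.3 (1.16 ± 0.30, edgeR adjusted p = 0.37). Dpp4 was read in 5 and 2 cells against 3 and 0 (60.8 and 18.5 against 8.06 and 0), and Clec3b in 8 and 5 against 6 and 2. Gsn, an actin-severing protein and with Ly6a the member of highest mean RPKM, was read in nearly all cells (1543 and 1407 against 1085 and 727.3, 0.72 ± 0.18, edgeR adjusted p = 0.35).

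Complement genes were of mixed sign. Cfb, which builds the alternative-pathway convertase, had 103.4 and 137.6 RPM in Cd34-positive and 6.42 and 20.4 in Cd34-negative cells (log2 fold change 3.36 ± 0.40, edgeR adjusted p = 0.036) and was read in 4 of 25 and 7 of 31 cells against 7 of 71 and 7 of 59. C3, on which all complement pathways converge, had 370.7 and 462.6 against 0.0563 and 8.21 (7.51 ± 1.07, edgeR adjusted p = 0.061). It was read in 5 and 8 Cd34-positive cells and in 1 and 8 Cd34-negative cells. C4b had 134.2 and 138.8 against 18.9 and 3.18 (4.05 ± 0.61, edgeR adjusted p = 0.069), and its reads could be shared with the near copy C4a, at 4.88 and 1.13 against 0.338 and 0. C4b (34728139 to 34743902), Cfb (34856374 to 34862514) and Tnxb lie near each other on chromosome 17. Of the members of highest mean RPKM, Serping1, the C1 inhibitor, had 2016 and 2006 against 2791 and 1764. Over the 12 members tested the median was 0.31, with 1 called higher, 0 lower, and 7 of positive sign.

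Among Wnt and BMP modulators, 16 were tested and Sfrp4 alone was called, which had passed the filter on genes through the Cd34-positive cells alone. Wnt2 had 61.1 and 40.5 RPM against 4.9 and 11.5 (log2 fold change 2.71 ± 0.57, edgeR adjusted p = 0.22), and Dkk2, a Wnt inhibitor, had 94.1 and 210.5 against 28.8 and 117.6 (1.26 ± 0.29, edgeR adjusted p = 0.28). Sfrp2, one of the pair of highest mean RPKM, had 298.7 against 768.7 in tumor 1 and 768.4 against 225.8 in tumor 2, in opposite directions, with 65.1% of the Cd34-positive reads in 1 cell. Fstl1, the other, had 4557 and 3769 against 3276 and 3589. The list's median was 0.29, and 4 members had an unadjusted p under 0.05 in the positive and 1 in the negative direction.

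The 9 genes lower in Cd34-positive cells included 2 matrix metalloproteinases, and 3 of the 9 had no read in any Cd34-positive cell. As said above, Mmp10, Krt14, Chad and Cxcl9 passed the filter on genes through the Cd34-negative cells alone and had to differ. Mmp13, collagenase 3, had 50.1 and 269.97 RPM in Cd34-positive and 1368 and 1962 in Cd34-negative cells (log2 fold change -3.81 ± 0.43, edgeR adjusted p = 0.036). The share of cells with a read differed less: 8 of 25 and 6 of 31 against 29 of 71 and 21 of 59. Mmp10, stromelysin 2, was read in 7 and 9 Cd34-negative cells (87.2 and 600.8 RPM) and in no Cd34-positive cell, and was at least 1513-fold lower with 3 reads over the group as the floor (edgeR adjusted p = 0.00035). Of its reads 71% came from 1 cell, and reads could be shared with its close copy Mmp3. Both lie in the metalloproteinase cluster of chromosome 9 (Mmp13 at 7272514 to 7283333, Mmp10 at 7502342 to 7510242). Mmp3, between them, had 695.2 and 455.8 against 989.7 and 1707 (-1.21 ± 0.32, edgeR adjusted p = 0.37). Its sign was kept in 17 of 19 alternatives and turned without cells with a sort marker read and with M of at least 7.

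Of the list of 21 matrix proteases and inhibitors 2 were called lower and 0 higher. Of these calls, Mmp10 had passed the filter on genes through the Cd34-negative cells alone. The list had a median of -0.15, and 6 members had an unadjusted p under 0.05 in the negative and 0 in the positive direction. Among these, Timp3 had 844.5 and 438.3 against 1032 and 1290 (-0.93 ± 0.30) and Mmp9 had 13.6 and 13.3 against 28.6 and 30.1 (-1.13 ± 0.48). Neither passed the adjusted test, and the mean log2(RPKM + 1) over cells of Timp3, as of Mmp3, was higher in the Cd34-positive cells of tumor 1. Mmp14 had 1959 and 1768 against 2141 and 1903 and Mmp2, the gelatinase, 3099 and 3348 against 3565 and 2886. Serpine2 and Timp1, the most abundant inhibitors, had 5231 and 4026 against 7111 and 4355, and 931.4 and 1047 against 750.9 and 1181. Scaled to the spike-ins the median of the list was 0.28.

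Tnn, tenascin N, which is found in dense connective tissue and tumor stroma, had 32.1 and 19.2 RPM against 171.9 and 119.9 (-2.54 ± 0.27, edgeR adjusted p = 0.032), and was read in 3 and 4 cells against 12 and 11. Actg2, the enteric smooth muscle actin, had 4.45 and 14.2 against 30.7 and 289.04 (-3.65 ± 0.44), Egln3, an oxygen-sensing prolyl hydroxylase, 0.287 and 4.89 against 5.01 and 95.8 (-4.24 ± 0.54), and 1500015O10Rik, 180.9 and 386.2 against 480.4 and 1033 (-1.42 ± 0.18), each with an edgeR adjusted p of 0.036. 1500015O10Rik was the called gene with the broadest presence on this side, in 8 of 25 and 12 of 31 against 40 of 71 and 44 of 59 cells. Chad, chondroadherin of cartilage, was read in 4 and 7 Cd34-negative and no Cd34-positive cell, and was at least 147.1-fold lower by summed reads. Its span overlaps that of Acsf2 (6.6 and 5.14 against 5.58 and 6.12 RPM). Krt14, a basal keratin, was read in 4 of 71 and 3 of 59 Cd34-negative cells (5.63% and 5.08%) and in no Cd34-positive cell. No read in 25 and 31 cells allows shares of up to 13.7% and 11.2%, so a lower share of cells was not shown. By summed reads it was at least 189.6-fold lower, with 85.7% of its reads in 1 cell. It fell below the filter on genes with M of at least 7, and Krt5, its partner, had 0 and 1 against 61.7 and 6.27. Cxcl9, an interferon-induced chemokine, was read in a like share of cells, 4% and 3.23% (1 and 1 cells) against 2.82% and 3.39% (2 and 2). Its sums were 0.143 and 0.125 against 32.1 and 42.8. The ratio of its summed reads was 273.4 with a counting interval from 75.5 to 2260, which leaves out the spread between cells. The next gene on this side by p at 5 RPKM or more was Ano1, a chloride channel, at 3.44 and 1.5 against 43.8 and 41.2 (-4.19 ± 0.58, edgeR adjusted p = 0.056).

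The list of 26 activated fibroblast and myofibroblast genes held no call, and its members differed in sign. Of 25 tested, 19 had a negative log2 fold change, the median was -0.54, 10 had an unadjusted p under 0.05 in the negative and 2 in the positive direction, and in 11 both Cd34-positive sums lay below both Cd34-negative sums and in 1 above; scaled to the spike-ins the median was -0.11 with 15 negative. Col12a1, a fibril-associated collagen of strained tissue, had 4683 and 2906 RPM against 7449 and 8708 (-1.13 ± 0.23, edgeR adjusted p = 0.21), and Wisp1, a matricellular Wnt target, 285.1 against 613.4 in tumor 2 and a log2 fold change of -0.99 in tumor 1 alone (over both tumors -1.06 ± 0.19, edgeR adjusted p = 0.11). In both genes both Cd34-positive sums lay below both Cd34-negative sums. Thbs2 had 1562 and 1070 against 2318 and 2195 (-0.81 ± 0.19), Inhba, a subunit of activin, 21.2 and 37.8 against 45.3 and 248.1 (-1.92 ± 0.42), Cyr61 902.8 and 1205 against 1642 and 1691 (-0.68 ± 0.18), Myl9 183.1 and 91.2 against 243.1 and 360.3 (-1.20 ± 0.37) and Fap 211.5 and 171.6 against 265.1 and 286.8 (-0.54 ± 0.21). The edgeR adjusted p of these 5 was between 0.25 and 0.67. The mean log2(RPKM + 1) over cells was lower in the Cd34-positive cells of both tumors for 14 of the 25 members and higher for 3, and that of Fap went the other way in tumor 1.

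Postn, periostin, which with Spp1 had the highest mean RPKM of the list, had a positive sign, with 12843 and 11844 against 9673 and 9515 (0.36 ± 0.15, edgeR adjusted p = 0.69). Spp1, osteopontin, had 2301 against 6491 in tumor 1 and 8340 against 6167 in tumor 2. Acta2, smooth muscle actin, which marks myofibroblasts, was read in 24 of 25 and 26 of 31 Cd34-positive and 67 of 71 and 53 of 59 Cd34-negative cells. Its level was 1041 against 964.7 in tumor 1 and 753.2 against 2259 in tumor 2 (-0.74 ± 0.37, edgeR adjusted p = 0.79), so the tumors differed in direction.

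Inflammatory cytokines and chemokines were of mixed sign: of 15 tested, 8 had a positive sign, the median was 0.01, and Cxcl9 alone was called. That gene had passed the filter on genes through the Cd34-negative cells alone. Cxcl12, the ligand of CXCR4 and ACKR3, had 354.1 against 312.9 in tumor 1 and 330.2 against 43.1 in tumor 2 (1.54 ± 0.58, edgeR adjusted p = 0.65). Il33, an alarmin of stromal cells, had 609.97 and 693.7 against 485.7 and 322.9 (0.71 ± 0.23, edgeR adjusted p = 0.55), and Ccl2 had 223.4 and 77.8 against 39 and 38.7 (1.76 ± 0.39, edgeR adjusted p = 0.27). Ccl2 was read in 12% and 19.4% of Cd34-positive against 23.9% and 10.2% of Cd34-negative cells, with a mean log2(RPKM + 1) of 1.18 against 1.55 in tumor 1 and 1.40 against 0.67 in tumor 2, and 50.8% of its Cd34-positive reads came from 1 cell. Cxcl1, a neutrophil chemokine, had 51.3 and 9.9 against 213.8 and 22.4 (-1.64 ± 0.32, edgeR adjusted p = 0.18). The most abundant members, Cxcl14 and Ccl11, had 739.04 and 823.1 against 890.8 and 596.4, and 332.9 and 244.9 against 190.8 and 189.7.

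Growth factors and their binding proteins held no call among 17 tested (median -0.32, or 0.10 scaled to the spike-ins, 2 with an unadjusted p under 0.05 in the positive and 5 in the negative direction). Igfbp2 had 623.3 and 415.5 RPM against 1111 and 1004 (-1.06 ± 0.19, edgeR adjusted p = 0.13), Igfbp3 383.4 and 404.02 against 1046 and 504.5 (-0.89 ± 0.27), and Pdgfc 19.1 and 20.4 against 47.9 and 62.8 (-1.48 ± 0.36). Figf, which encodes VEGF-D, had 21.4 and 32.4 against 3.44 and 6.97 (2.42 ± 0.59, edgeR adjusted p = 0.32). Igf2 was read in 1 and 0 cells against 2 and 3. The most abundant, Igfbp7 and Igfbp4, had 2882 and 3342 against 3995 and 4186, and 2186 and 2450 against 2763 and 1820.

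No call fell in the lists of interstitial collagens, basement membrane genes and elastic fibre genes. The 10 interstitial collagens had a median of -0.09. Col1a1 had 16124 and 10535 RPM against 15449 and 12517, Col5a2 4514 and 4273 against 4854 and 5028, and Col3a1 29086 and 19188 against 16882 and 14992 (0.56 ± 0.16, edgeR adjusted p = 0.47), the one collagen of the list with an unadjusted p under 0.05. The 12 basement membrane genes had a median of -0.02 and no call: Col4a1 and Nid1 had 2288 and 1698 against 2602 and 1970, and 1692 and 1306 against 1420 and 1393, and Lamc1 692.9 and 512.1 against 548.4 and 441.1. The minor chain Col4a5 had 3.16 and 32.8 against 16.2 and 151.95 (-2.28 ± 0.33, edgeR adjusted p = 0.061), read in 3 and 6 against 10 and 14 cells. The 16 elastic fibre genes had a median of 0.13 and no call, with Emilin2 at 133.8 and 142.7 against 74 and 74.4 (0.89 ± 0.24, edgeR adjusted p = 0.37) and Ltbp1 at 140.7 and 156.5 against 102.6 and 110.2. Fbln2 and Loxl1, the most abundant of these, had 1612 and 2134 against 1700 and 2729, and 1641 and 1447 against 1332 and 1132.

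Of the 9 leucine-rich proteoglycans outside M none was called (median 0.26). Bgn had 10694 and 13703 against 13261 and 12360, and Aspn, asporin, which is raised in activated fibroblasts, 429.4 and 223.9 against 639.7 and 705.02 (-1.12 ± 0.28, edgeR adjusted p = 0.32). Kera was read in 2 and 1 cells against 0 and 1. The 10 published mCAF markers outside M had a median of 0.09 and no call, with Col14a1 at 562.4 and 383.3 against 373.4 and 325.4 and Smoc1 at 0 and 31.9 against 9.18 and 109.1. The 14 mesenchymal surface genes had a median of 0.18 and no call. Among these Icam1 had 110.9 and 129.9 against 87.2 and 66.8 (0.65 ± 0.26), and Nt5e (CD73) 56.7 and 23.1 against 0 and 9.91, in 4 and 8 against 0 and 3 cells. Cd9 and Itgb1, the most abundant, had 769.2 and 829.96 against 625.6 and 695.6, and 1110 and 979.2 against 1207 and 1275. Of the relatives and partners of CD34 only Podxl2 (23.1 and 16.3 against 17.9 and 24) and the adaptor Crkl (124.3 and 121.3 against 113.4 and 99.1) were tested, with no call.

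Lipid genes (12 tested, median 0.18), antigen presentation genes (7 tested, median -0.06) and immediate early genes (19 tested, median -0.02) held no call. Apoe had 39.3 and 28.3 against 123.9 and 93.9 (-1.70 ± 0.28, edgeR adjusted p = 0.097), but it was read in 40% and 38.7% of Cd34-positive against 29.6% and 28.8% of Cd34-negative cells, with a mean log2(RPKM + 1) of 2.25 and 2.00 against 1.79 and 1.94, and 1 cell held 34.5% of the Cd34-negative reads. Lpl, lipoprotein lipase, had 847.2 and 390.9 against 1387 and 588.8 (-0.66 ± 0.17, edgeR adjusted p = 0.37), while Apod had 794.7 against 1142 in tumor 1 and 4471 against 660.6 in tumor 2, with 65.2% of the Cd34-positive reads in 1 cell. B2m and H2-D1 had 1826 and 2349 against 1798 and 2236, and 696.4 and 844.4 against 820.7 and 768.7. Class II transcripts were scarce, with Cd74 at 20.7 and 8.14 against 5.01 and 2.01 and H2-Eb1 at 0.861 and 5.01 against 3.15 and 7.82. Fos and Egr1, which respond to dissociation, had 2717 and 2607 against 3643 and 2617, and 1542 and 1530 against 1876 and 1555. Klf2 and Klf4 had 94.9 and 194.8 against 73.1 and 110.3, and 103.4 and 127.5 against 53 and 106.03. The mean log2(RPKM + 1) over cells went the other way for Fos (8.91 and 8.49 against 8.67 and 8.21) and Egr1 (8.22 and 7.73 against 7.70 and 7.03). In both tumors this mean was higher in Cd34-positive cells for 14 of the 19 immediate early genes and lower for 1. None of the 12 cell cycle genes tested had a positive sign (median -1.10, or -0.67 with 3 of positive sign scaled to the spike-ins), none was called and 3 had an unadjusted p under 0.05. Ccna2, cyclin A, had 23.2 and 14.8 against 52.5 and 60.1 (-1.60 ± 0.39, edgeR adjusted p = 0.32), read in 3 and 4 against 14 and 9 cells, Ccnb1 4.45 and 3.76 against 19 and 14.3, Ccnb2 24.5 and 18.2 against 40.5 and 44.6, and Pcna 24.8 and 25.6 against 25.8 and 29.2; with M of at least 7 the median of the list was -0.51 with 4 positive signs, and without the cells under 100000 reads or over 30% spike-in reads it was -0.73 with 3. Per cell the list differed little, with a mean of 2.16 and 1.9 of its 14 genes read per Cd34-positive and 2.11 and 2.08 per Cd34-negative cell, and the mean log2(RPKM + 1) was higher in the Cd34-positive cells of both tumors for 4 of the 12 and lower for 6. Ccnb1 was read in 2 and 2 Cd34-positive and in 1 and 2 Cd34-negative cells, and 1 cell held 64.6% of the Cd34-negative reads.

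Among the Cd34-positive cells, the summed level of the genes higher in that group was largest in the cells with most Cd34, though not for each gene. The Cd34-positive cells of each tumor were divided at their median Cd34 RPKM into 12 and 13 cells of tumor 1 and 15 and 16 cells of tumor 2; since Cd34 made the groups this is a description, and the depth was like in these parts (medians of 276600 and 226239 reads in tumor 1 and 244094 and 239459 in tumor 2). A cell with no Cd34 read had a mean of 9.23 of the 24 universal fibroblast genes in tumor 1 and 8.8 in tumor 2, a cell below the median 10.2 and 11.1, and a cell at or above it 16.2 and 12.6. Their summed level was 3824, 3687 and 11420 RPM in tumor 1 and 3330, 4092 and 12113 in tumor 2. By summed level the cells below the median thus lay nearer to the Cd34-negative cells in both tumors, but by genes read per cell they lay nearer to the upper cells in tumor 2. For the 13 genes called higher the sums were 688.96, 1693 and 5163, and 603.1, 1053 and 5029. Without the leading cell of each tumor, the sums of the upper part were 4230 and 3752 RPM for these 13 genes and 9610 and 7888 RPM for the universal list, with 15.6 and 12 of its genes read per cell. For the 9 called lower the sums, with all cells and in the same order, were 2261, 378.1 and 155.7, and 4186, 1042 and 344.9. Both sets of genes were called on sums that include these Cd34-positive cells, and 3 of the 9 had no read in any of them, so their low level in each part is fixed in part by the choice of genes. Tnxb was read in 0 of 12 and 6 of 13 cells of the lower and upper part in tumor 1 but in 3 of 15 and 3 of 16 in tumor 2, where its level was 6.99 and 370.02 RPM, the latter from those 3 cells. Dpt was read in 3 of 12 and 9 of 13, and in 5 of 15 and 8 of 16. Other genes did not follow this order: Thbs4 had 712.1 and 614.5 RPM in tumor 1, against 222.1 and 811.2 in tumor 2, and Cfb had 140.01 and 135.1 in tumor 2, against 0 and 208.7 in tumor 1. The activated fibroblast list was at 40370, 36093 and 32770, and 48723, 47136 and 32093, with 18.6, 18.6 and 18.2, and 18.8, 19.1 and 16.7 of its genes read per cell.

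**Figure D3:**
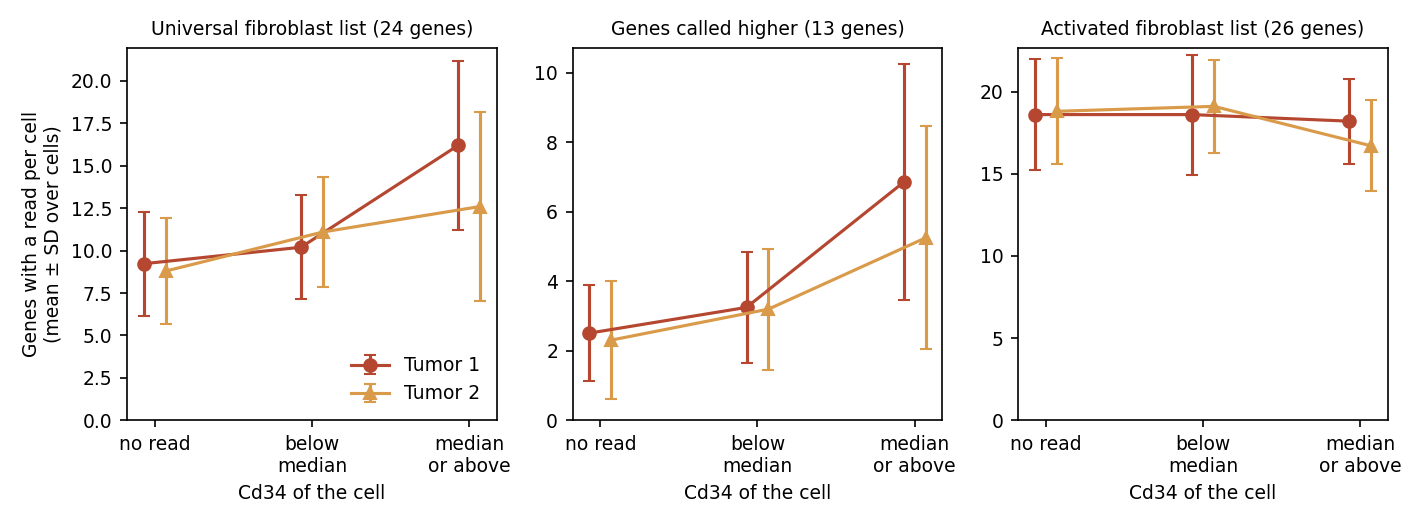
Mean number of genes with a read per cell (± SD over cells) in cells with no Cd34 read, with Cd34 below the median RPKM of the tumor's Cd34-positive cells, and at or above it, for the universal fibroblast list, the genes called higher and the activated fibroblast list, in tumor 1 (circles) and tumor 2 (triangles). For the universal list the means run from 9.23 through 10.2 to 16.2 in tumor 1 and from 8.8 through 11.1 to 12.6 in tumor 2, and for the activated list from 18.6 to 18.2 and from 18.8 to 16.7.

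Genes by which mCAF-like cells can be divided in other ways were spread over both groups. Besides Mmp13 and Acta2, Tnc was read in 14 of 25 and 19 of 31 Cd34-positive and 40 of 71 and 47 of 59 Cd34-negative cells, at 562.1 and 566.8 against 690.4 and 1623 RPM (-0.91 ± 0.29, edgeR adjusted p = 0.56). S100a4 was read in a larger share of Cd34-positive cells, 80% and 74.2% against 47.9% and 67.8%. It had 113.3 and 508.1 against 97.8 and 312.1 RPM (0.45 ± 0.21, edgeR adjusted p = 0.76), and a mean log2(RPKM + 1) of 5.52 and 6.79 against 3.26 and 5.58. Mme was read in 24% and 51.6% against 38% and 37.3% of cells, at 53.6 against 183.3 RPM in tumor 1 and 102.2 against 79.8 in tumor 2.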

How the data were processed

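Single-cell Smart-seq2 libraries of 768 wells (2 tumors, 1 plate each) were used. The authors aligned single-end reads to mm10 with STAR and counted them per RefSeq gene. The deposited counts are whole reads for 24490 endogenous genes and 92 ERCC spike-ins, and RPKM, also deposited, had been computed by the authors using rpkmforgenes. Both tables share 1 sample per column, and 0 columns were left unused. RPKM values served to select cells (with a pseudocount of 1) and to filter genes (mean of at least 1), and the counts for every test.

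The members and the gene lists were chosen with earlier results of these data known. Counts were summed per tumor and Cd34 status and fitted with edgeR 4.0.16 in R 4.3.3 (TMM, glmQLFit, glmQLFTest, design of tumor plus Cd34 status). The tumor block was part of the main fit, since both sums come from the same tumor. With 2 tumors an exact paired permutation test cannot go below p = 0.5, so no single-gene permutation test is given. Doublets were gated out by the authors in the sort, and no caller was run on the counts here. The mCAF-like cells held 14602 to 539238 reads each. Cells were also thinned to 42000 reads. The script was tested on simulated data with known changes. Alternatives covered DESeq2 1.42.0, scaling, filters, cell selection and Cd34 thresholds; those with M of at least 7, without 2 leading cells and without cells under 100000 reads or over 30% ERCC, and the division by Cd34 level, were chosen after seeing the data.

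Genes named in the text were Cd34 and the 12 genes of the rule, the called genes with the same sign in both tumors (up to 15 per direction, filled to 10 by smallest p at a mean RPKM of 5 or more), and, of each of 18 lists, every called member or otherwise the 2 with the smallest p, plus the 2 of highest mean RPKM. Other list members were named after their values were seen. Some genes that the rule selects are not reported here. Marker lists (7) are given as summed levels. Gene positions come from RefSeq GRCm38.p6.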

Additional observations from a re-analysis of the deposited data

How the results depend on the processing

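Of 13 genes higher and 9 lower, the counts (higher, lower) were 2 and 0 with no replicate block for the tumor, 78 and 90 with DESeq2, 13 and 2 with ERCC totals as library size, 3 and 1 with no filter on genes, with filterByExpr and with each cell scaled to the same total, 74 and 87 with thinned counts and Cd34 status read from them, and 17 and 8 with thinned counts and the deposited status. They were 3 and 3 with at least 5 Cd34 reads against 0 and with Cd34 RPKM of at least 10 against under 10, 2 and 1 with M of at least 5, 4 and 3 with M of at least 3, 7 and 3 with M of at least 7, 1 and 1 without cells of V of at least 2, 6 and 2 without cells with a read of a sort marker, 0 and 0 with cells at or above the median depth, 1 and 1 without the 2 leading cells, 5 and 2 without cells under 100000 reads or over 30% ERCC, and 2 and 1 at an adjusted p of 0.001. The genes at an adjusted p of 0.001 were Sfrp4, Tnxb and Mmp10, each of which passed the filter only through the group in which it was high. Median-ratio size factors gave 13 and 9. The cause of these shifts was not tested. DESeq2 called 12 of the 13 and 6 of the 9. Leaving out a tumor gives signs with no test, so no count. All 13 and all 9 kept their sign in each tumor and in every alternative in which they were tested. The same sign in both tumors was a condition for naming a called gene, and the alternatives mostly reuse the same cells. The kept signs are therefore not independent evidence. Of the 73 genes followed one by one through the alternatives, Mmp3 alone turned its sign. It did so without cells with a read of a sort marker (0.02) and with M of at least 7 (0.09). Other named genes turned more often: Mmp2 kept its sign in 11 of 19 alternatives, and Nid1 and Podxl2 in 14. Between the tumors the sign differed for Acta2 (0.12 in tumor 1, -1.61 in tumor 2), Spp1 (-1.49 and 0.42) and Mme (-1.76 and 0.34). It also differed for Sfrp2 (-1.35 and 1.75), Apod (-0.51 and 2.74) and Penk (1.42 and -1.01), and for 32.6% of all list members and called genes tested. The share of cells with Cd34 lay between 26% and 34.4% with either tumor left out and moved by less than 1 SD in every alternative. Only 4 summed libraries from 2 tumors limit all calls, and 56 cells limit the rarer genes.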
